A study of Homo sapiens with 4 samples.

Results

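The mitotic genes described here are 47 transcripts that act in cell division: the cyclin-dependent kinase CDK1 with its cyclins and activating phosphatases, the other mitotic kinases, checkpoint and ubiquitin ligase factors, centromere and kinetochore proteins, kinesins, spindle proteins, cytokinesis factors and a few chromosome and transcription factors. They were taken by gene symbol from a list of known mitotic genes, put together with earlier results of these data known, and all 47 were found among the 15562 genes of the RNA-seq table. The hypoxia library came from H1975 cells held for 24 h at 37 °C in a gas mix of 1% O2, 5% CO2 and 94% N2. The normoxia library (labelled NC) came from H1975 cells kept for 24 h in a humid atmosphere with 5% CO2 at 37 °C. These are cells of a human lung adenocarcinoma line, labelled wild type in both conditions, so that no allele or transgene separates them. There was 1 RNA-seq library per condition, from whole cells in bulk. No spread between cultures can be had, and every interval given here is a 95% interval for counting error alone.

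The libraries held 18943320 counts in hypoxia and 17643836 in normoxia. Of 11 markers of lung epithelium in the table, 3 (the surfactant genes SFTPB and SFTPC and the transporter SLC34A2) were below 1 FPKM (fragments per kilobase of transcript, scaled to library size, so a level per length) in both libraries, while keratins and the lung factor NKX2-1 were well expressed. The summed level of the 11 was 4711 FPKM in hypoxia and 5188 in normoxia. Most of it came from KRT7, KRT8, KRT18 and KRT19, each lower in hypoxia. EPCAM, CDH1, NKX2-1 and NAPSA had log2 ratios between 0.066 and 0.14. The 4 endothelial markers summed to 1.08 FPKM in hypoxia and 1.25 in normoxia, with VWF at 0 in normoxia. The 7 fibroblast markers summed to 21.0 FPKM in hypoxia and 20.2 in normoxia, most of it COL1A1. The 4 leukocyte markers summed to 140 FPKM in hypoxia and 144 in normoxia, of which CD68 gave 128 in each library, and the pan-leukocyte gene PTPRC had 2 counts in hypoxia and 0 in normoxia. The part of these markers in the results was not tested. Known targets of the hypoxia-inducible factors were higher in the hypoxia library: NDRG1, DDIT4, SLC2A1, VEGFA and CA9 had log2 ratios between 0.51 (CA9) and 1.32 (NDRG1).

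Mitotic genes are made in a wave. Their transcripts are low after division and through early S phase, and climb in G2 and mitosis, when a complex of MuvB proteins with MYBL2 and then FOXM1 binds their promoters. In resting or arrested cells the same MuvB core joins repressors and holds them off, so the level of these transcripts in a culture is widely used as a sign of how many of its cells are dividing. In lung adenocarcinoma, as in other carcinomas, they make up most of the common proliferation signatures. In bulk RNA, fewer cells in a phase and less RNA per cell cannot be told apart.

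The promoter element that MuvB reads is known as the CHR, with the letters TTTGAA, and it often lies a short way downstream of CCAAT boxes bound by the factor NF-Y. Promoters of 4 mitotic genes that carry the CHR letters are shown. Of the members with a single start that holds TTTGAA, KIF4A and HMMR had the highest ratios of hypoxia to normoxia, and NDC80 and MAD2L1 the lowest. The intervals of NDC80 and MAD2L1 held 1. KIF2C, CDK1, AURKB and ECT2, which fell outside this choice, had lower ratios. The sequences are from RefSeq (GRCh38.p14), run 5′ to 3′ along the gene from 250 bases before the start to 50 after it, and have TTTGAA and CCAAT, on either strand, in capitals.
KIF4A, chrX:70289854-70290153, plus strand: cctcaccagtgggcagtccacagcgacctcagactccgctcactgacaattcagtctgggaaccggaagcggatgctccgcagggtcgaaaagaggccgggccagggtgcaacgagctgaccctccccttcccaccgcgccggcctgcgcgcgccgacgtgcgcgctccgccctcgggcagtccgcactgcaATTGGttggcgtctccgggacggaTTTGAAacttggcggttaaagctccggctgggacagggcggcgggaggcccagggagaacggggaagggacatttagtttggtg
HMMR, chr5:163460382-163460681, plus strand: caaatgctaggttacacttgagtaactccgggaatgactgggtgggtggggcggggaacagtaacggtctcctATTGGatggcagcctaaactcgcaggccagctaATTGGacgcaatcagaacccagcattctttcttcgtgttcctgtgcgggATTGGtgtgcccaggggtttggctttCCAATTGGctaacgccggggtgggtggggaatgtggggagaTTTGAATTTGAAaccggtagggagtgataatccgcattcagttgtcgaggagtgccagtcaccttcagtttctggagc
MAD2L1, chr4:120066799-120067098, minus strand: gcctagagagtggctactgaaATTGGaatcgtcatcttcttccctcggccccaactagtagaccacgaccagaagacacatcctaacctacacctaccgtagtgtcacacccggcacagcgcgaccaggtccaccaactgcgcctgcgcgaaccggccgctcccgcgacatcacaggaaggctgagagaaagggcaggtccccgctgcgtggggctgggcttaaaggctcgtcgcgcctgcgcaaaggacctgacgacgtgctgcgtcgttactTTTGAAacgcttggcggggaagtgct
NDC80, chr18:2571307-2571606, plus strand: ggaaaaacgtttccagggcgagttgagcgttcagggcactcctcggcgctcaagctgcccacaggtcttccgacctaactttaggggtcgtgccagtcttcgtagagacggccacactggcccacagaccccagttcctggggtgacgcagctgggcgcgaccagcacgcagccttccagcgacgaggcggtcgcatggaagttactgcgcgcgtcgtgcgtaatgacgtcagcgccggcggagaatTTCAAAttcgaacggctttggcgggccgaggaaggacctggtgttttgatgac
With the first transcribed base as 1, the TTTGAA letters began at -34 in KIF4A and, as adjacent copies, at -28 and -22 in HMMR. They began at -3 in NDC80 and at 25 in MAD2L1. The nearest upstream CCAAT box began at -58 in KIF4A and -66 in HMMR, was far upstream at -229 in MAD2L1, and no such letters were in the NDC80 window. KIF23, the next lowest by the same choice with a log2 ratio of -0.11, had CCAAT at -64 and TTTGAA at -55. These 4 promoters therefore show no link between the place of the box and the ratio.

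These letters were common among the mitotic genes. Promoters of UBE2C, FOXM1, TPX2, BUB3, BIRC5, AURKA, RACGAP1 and TTK were not analysed here. Of the 39 members with a promoter in the RefSeq table, 28 (71.8%) had TTTGAA on either strand in at least 1 of their promoters, against 13.6% of the 10426 genes passing the filter that had one. CCAAT was held by 32 of the 39 (82.1%), against 43.0%. The related letters TTCGAA, which read the same on both strands, were in 3 of 39 (7.69%, against 2.37%), and the E2F-type letters GGCGGGAA in 3 of 39 (7.69%, against 6.40%). By single promoters, of which some genes have several, TTTGAA began between positions -50 and 20 in 20 of 49 promoters of mitotic genes (40.8%) and in 2.38% of the 15182 promoters of genes passing the filter. A match of letters is a description and does not show that a factor binds there. The 28 members with TTTGAA had a median log2 ratio of -0.013, and the 11 with a promoter but without these letters a median of 0.084, with ranges of -0.16 to 0.26 and -0.17 to 0.22 that largely overlapped.

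After 24 h of hypoxia the mitotic transcripts as a whole were close to their normoxia level. Together they took 126777 counts in hypoxia, 0.669% of the library (0.666 to 0.673), and 114009 in normoxia, 0.646% (0.642 to 0.650; exact Clopper-Pearson). After scaling of the libraries by the trimmed mean of M values (TMM), the ratio of hypoxia to normoxia was 1.04 (1.03 to 1.05). The median log2 ratio was 0.023 over the 47 members and 0.0033 over the 12725 genes tested. The highest member was the chromosome kinesin KIF4A, 1.20-fold higher in hypoxia, and the lowest the kinesin KIF2C, 1.13-fold lower. Each of the 47 lay within 0.3 of no change on the log2 scale, as did 86.4% of all genes tested and 97.5% of the 7175 genes counted at least as deeply as the least counted member (458 counts) in both libraries.

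A gene was called where its ratio reached 2 in either direction and the interval excluded 1. Of the targets of the hypoxia-inducible factors named above, NDRG1 met this rule (2.50-fold). DDIT4, SLC2A1, VEGFA and CA9 did not, at 1.80-fold or less. None of the 47 was called, against 0.472% of all genes tested called higher and 0.440% called lower, and 0.0279% and 0.00% of the equally deeply counted genes. Within counting error, 14 members lay wholly above 1 (29.8%, against 15.0% of all genes tested), 6 wholly below (12.8%, against 14.0%), and 27 had an interval that held 1. Among the equally deeply counted genes, 18.8% lay wholly above and 17.6% wholly below. CCNB2 and TTK held 1 and CENPA lay below when scaled by total counts, which gave 12 members above and 7 below, and PLK1 held 1 with the size factors of DESeq2. Upper quartile scaling also left CCNB2 holding 1. With the trend of the ratio on gene length removed, INCENP, PLK1 and KIF23 held 1, and CDC20 and PTTG1 lay above. The widest reach of any interval was 1.30-fold higher (HMMR) and 1.21-fold lower (KIF2C), so a change of 1.5-fold in either direction lay outside the counting interval of every member. CCNA2, CDC25C, PLK1, BUB1B, CDCA3, KIF20A, ANLN and FOXM1 overlap another protein-coding gene. Their values are uncertain because nothing states whether reads were counted by strand or how reads that fit 2 genes were treated. The latter matters for BUB1B, which overlaps the joint gene BUB1B-PAK6.

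**Figure D1:**
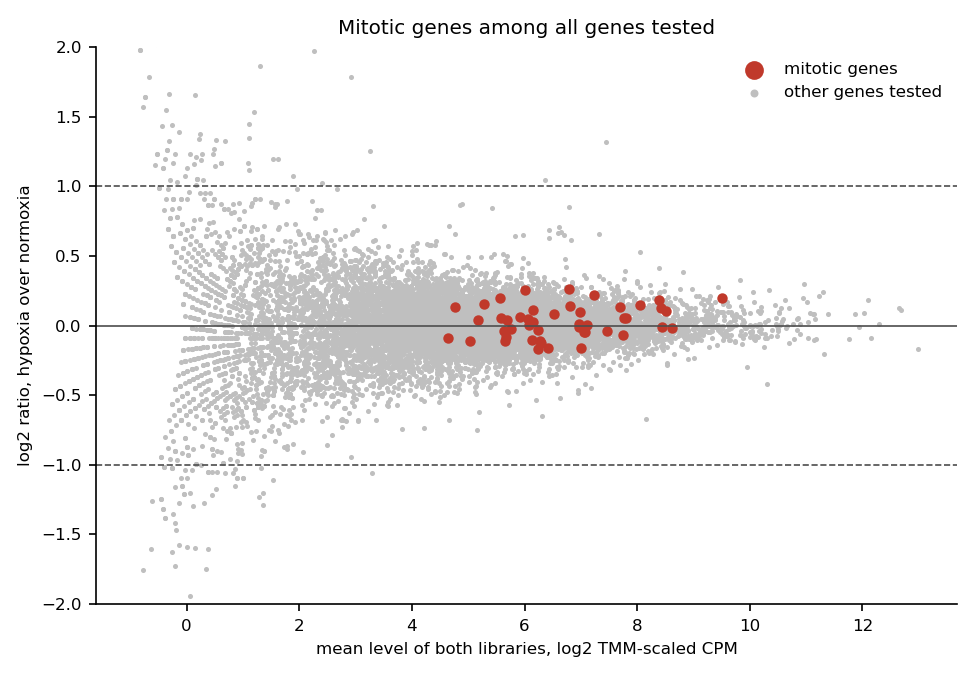
Log2 ratio of hypoxia to normoxia (vertical axis) against the mean TMM-scaled level of both libraries (horizontal axis, log2 CPM) for the 47 mitotic genes in red and the other genes tested in grey, with dashed lines at 2-fold; 10 genes lie outside the vertical range. The mitotic genes sit among well-counted genes, between -0.17 and 0.26, inside the band of the others.

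The FPKM values allow levels of different genes to be compared. The median member stood at 28.2 FPKM in hypoxia and 26.6 in normoxia, above 80.1% of the genes tested in hypoxia and 78.9% in normoxia. CDC25B had the highest level, with 214 FPKM in hypoxia and 187 in normoxia. CCNB1 followed at 175 FPKM in hypoxia and 156 in normoxia, UBE2C at 142 FPKM in hypoxia and 147 in normoxia and CDC20 at 137 FPKM in hypoxia and 133 in normoxia. The 4 highest places were thus the same in both libraries. The lowest levels were those of KIF14 (3.05 FPKM in hypoxia and 3.26 in normoxia), ASPM (4.94 FPKM in hypoxia and 5.07 in normoxia) and CENPE (5.70 FPKM in hypoxia and 5.53 in normoxia), and these held the last places in both libraries. The largest moves in the order were by 4 places, for KIF20A, KIF4A and NEK2, each toward a higher place in hypoxia.

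**Figure D2:**
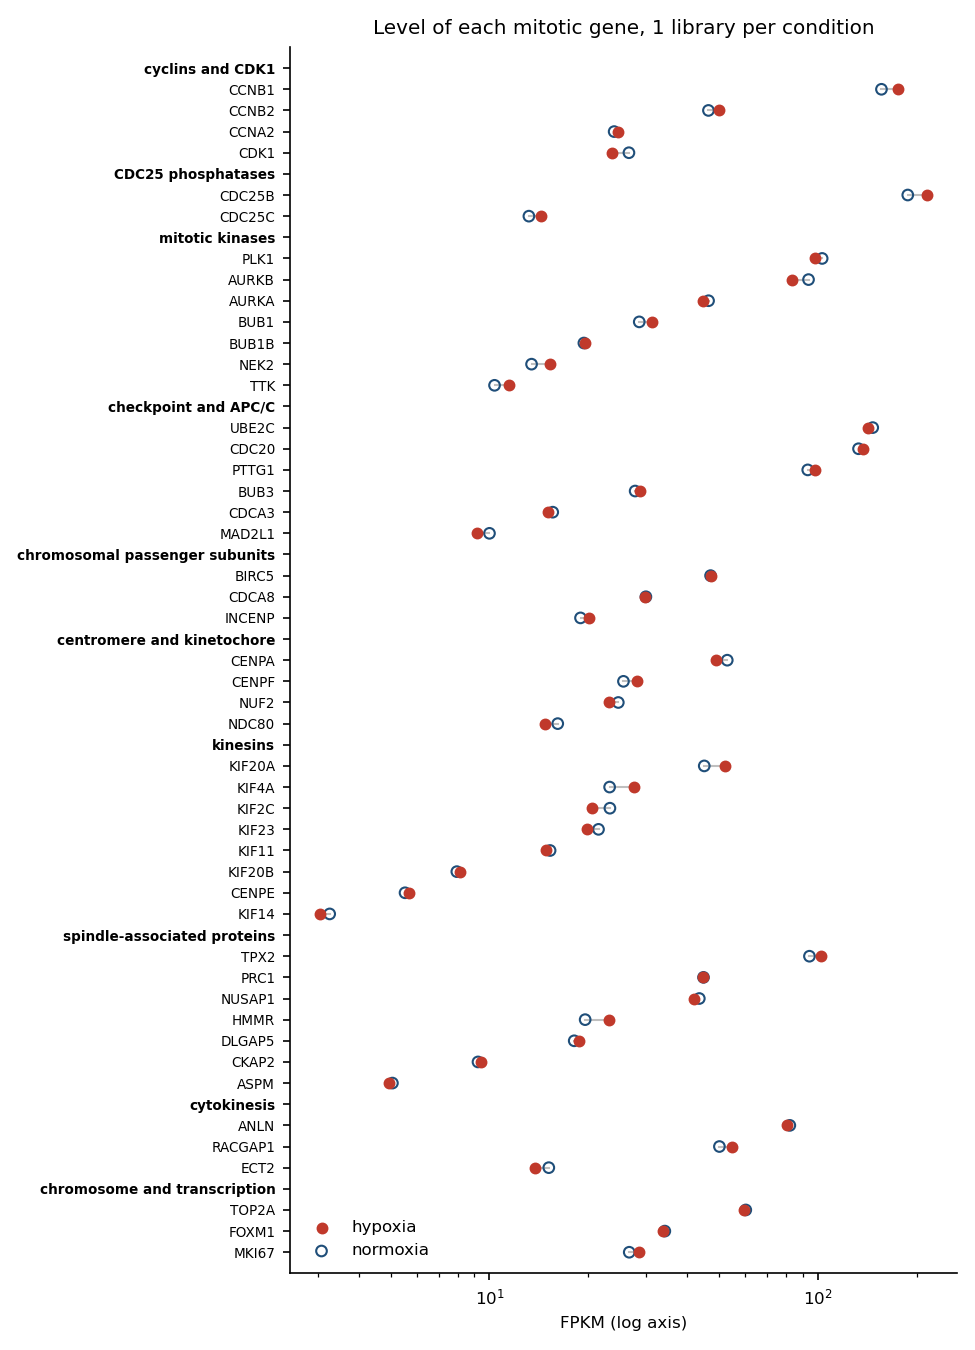
Level of each mitotic gene in FPKM (log axis), grouped by role, with filled red points for the hypoxia library and open blue points for the normoxia library. The points of a gene lie close together, while levels between genes span 3.05 to 214 FPKM in hypoxia and 3.26 to 187 in normoxia.

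CDK1 and its cyclins lay on both sides of no change. CCNB1, the B-type cyclin that drives entry into mitosis, had 6742 counts in hypoxia against 5576 in normoxia, a log2 ratio of 0.18 (0.13 to 0.23). CCNB2, the other B-type cyclin, had 1403 counts in hypoxia against 1217 in normoxia, at 0.11 (0.00079 to 0.22). CCNA2, which acts from S phase to early mitosis, had 1278 counts in hypoxia against 1161 in normoxia, at 0.046 (-0.070 to 0.16). CDK1, the kinase that all of them activate, had 1519 counts in hypoxia against 1596 in normoxia, at -0.16 (-0.27 to -0.062). The cyclin B1 transcript was thus higher and the CDK1 transcript lower in hypoxia, with intervals far apart, and cyclin A2 was between them. The summed counts of the 4 gave 0.10 (0.064 to 0.14).

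The CDC25 phosphatases remove the inhibitory phosphates from CDK1, and both CDC25 members had log2 ratios above 0, while CDC25A, which is no member, did not. CDC25B, the form that starts CDK1 activation at the centrosome, was the most abundant member, with 14738 counts in hypoxia against 12025 in normoxia, a log2 ratio of 0.20 (0.17 to 0.24). CDC25C, which takes part in the later feedback, had 536 counts in hypoxia against 459 in normoxia, at 0.13 (-0.051 to 0.31). The interval of CDC25C was wide enough to hold both no change and the value of CDC25B. CDC25A, which acts mainly at entry into S phase and was among the listed regulators of mitotic entry and exit, had 226 counts in hypoxia against 257 in normoxia, at -0.28 (-0.54 to -0.015), so the family lay on both sides of no change.

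The 7 mitotic kinases lay on both sides of no change, with 3 intervals above (42.9%), 2 below (28.6%) and a median of 0.023. The equally deeply counted genes had 18.8% above and 17.6% below. NEK2, which separates the centrosomes, had 952 counts in hypoxia against 777 in normoxia, a log2 ratio of 0.20 (0.062 to 0.34). TTK, the spindle checkpoint kinase also called MPS1, had 771 counts in hypoxia against 649 in normoxia, at 0.16 (0.0034 to 0.31). BUB1, which builds the checkpoint platform at kinetochores, had 2222 counts in hypoxia against 1895 in normoxia, at 0.14 (0.048 to 0.23). Its relative BUB1B (BUBR1), a part of the inhibitor of the anaphase promoting complex, had 1359 counts in hypoxia against 1254 in normoxia, at 0.023 (-0.088 to 0.14). AURKA, which acts at the spindle poles, had 2469 counts in hypoxia against 2395 in normoxia, at -0.049 (-0.13 to 0.033), and PLK1, which acts at centrosomes, kinetochores and the midbody, had 3994 counts in hypoxia against 3918 in normoxia, at -0.065 (-0.13 to -0.00094). AURKB, the kinase of the chromosomal passenger complex, was the lowest of the group with 2301 counts in hypoxia against 2412 in normoxia, at -0.16 (-0.24 to -0.078). Of the checkpoint kinases BUB1 thus lay above 0, TTK did so except when scaled by total counts, and BUB1B held no change. The summed kinase counts gave -0.012 (-0.046 to 0.023), and summed FPKM with a pseudocount of 1 gave -0.054.

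The interval of each of the 6 checkpoint and ubiquitin ligase factors held 1, as did 4561 of the 7175 equally deeply counted genes. Their summed counts gave 0.021 (-0.012 to 0.054). PTTG1 (securin), which restrains separase until anaphase, was highest with 1790 counts in hypoxia against 1584 in normoxia, a log2 ratio of 0.084 (-0.015 to 0.18). PTTG2, an intronless copy of nearly the same sequence, had 0 counts in hypoxia and 1 in normoxia, and PTTG1 is uncertain in so far as reads fit both. BUB3, the partner of the BUB kinases, was at 0.056 (-0.0082 to 0.12), and CDC20, the activator of the anaphase promoting complex (APC/C), had 4267 counts in hypoxia against 3859 in normoxia, at 0.052 (-0.011 to 0.12). UBE2C, the ubiquitin-conjugating enzyme of that complex, was at -0.040 (-0.11 to 0.031), and CDCA3, a trigger of mitotic entry, at -0.042 (-0.18 to 0.092). MAD2L1 (MAD2), the checkpoint protein that binds CDC20, was lowest with 910 counts in hypoxia against 922 in normoxia, at -0.11 (-0.25 to 0.022). With TMM scaling, a difference in any single 1 of these 6 was not detectable at this depth. With the length trend removed, the intervals of CDC20 and PTTG1 lay wholly above 1. The count ratio of CDC20 to MAD2L1, a pair chosen after the values were seen, changed 1.12 (1.01 to 1.24)-fold.

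Besides AURKB, the chromosomal passenger complex consists of the scaffold INCENP, survivin (BIRC5) and borealin (CDCA8). INCENP had 2470 counts in hypoxia against 2162 in normoxia, a log2 ratio of 0.10 (0.016 to 0.18). With the length trend removed, the interval of INCENP held no change. BIRC5 had 2358 counts in hypoxia against 2194 in normoxia, at 0.011 (-0.073 to 0.096), and CDCA8 had 1282 counts in hypoxia against 1200 in normoxia, at 0.0028 (-0.11 to 0.12). The 3 non-kinase subunits thus lay at or above 0, and the kinase below it.

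At the centromere and kinetochore, CENPF stood apart from the other 3. CENPF, a large coat protein of the kinetochore that peaks in G2, had 5301 counts in hypoxia against 4478 in normoxia, a log2 ratio of 0.15 (0.093 to 0.21). CENPA, the histone variant that marks centromeres, had 1283 counts in hypoxia against 1296 in normoxia, at -0.11 (-0.22 to 0.0053). NDC80, which binds microtubules at the kinetochore, had 596 counts in hypoxia against 605 in normoxia, at -0.11 (-0.28 to 0.051). Its direct partner NUF2 had 939 counts in hypoxia against 933 in normoxia, at -0.083 (-0.22 to 0.049). The last 3 had log2 ratios close to each other and below 0, each with an interval that reached 0. The summed counts of the group, 0.058 (0.013 to 0.10), lay above 0 because CENPF gave most of them. The sum of FPKM, where length no longer weighs, had a log2 ratio of -0.053 with a pseudocount of 1, on the other side of 0.

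The kinesins held both the highest and the lowest member. KIF4A, which binds chromosome arms and the central spindle, had 2294 counts in hypoxia against 1796 in normoxia, a ratio of 1.20 (1.13 to 1.27). Its near-identical intronless copy KIF4B had 14 counts in hypoxia and 10 in normoxia, so few reads were given to it, but how the counting treated reads that fit both copies is not stated, and the value of KIF4A is uncertain to that extent. KIF20A (MKLP2), which carries the passenger complex to the spindle midzone, had 3047 counts in hypoxia against 2458 in normoxia, a log2 ratio of 0.22 (0.14 to 0.29). It overlaps the gene CDC23, itself at 0.12 (0.0038 to 0.24). At the other end, KIF2C (MCAK), which takes microtubules apart at centromeres, had 1350 counts in hypoxia against 1426 in normoxia, 1.13-fold lower (1.04 to 1.21), and KIF23, the motor of centralspindlin, had 1409 counts in hypoxia against 1426 in normoxia, at -0.11 (-0.22 to -0.0027) on the log2 scale. The intervals of the remaining 4 held 1. CENPE, which moves chromosomes to the spindle equator, was at 0.052 (-0.085 to 0.19), and KIF20B, active in cytokinesis, at 0.040 (-0.092 to 0.17). KIF11 (Eg5), which pushes the spindle poles apart, was at -0.032 (-0.14 to 0.077), and KIF14, which recruits citron kinase to the midbody, at -0.086 (-0.28 to 0.10). Of the 8 kinesins 2 (25.0%) lay wholly above 1 and 2 (25.0%) wholly below, with a median of 0.0040. The equally deeply counted genes had 18.8% above and 17.6% below. KIF23 held 1 with the length trend removed.

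Among the 7 spindle-associated proteins, 2 had intervals above 1 (28.6%, against 18.8% of the equally deeply counted genes) and none below (against 17.6%). HMMR, a spindle protein that also serves as a hyaluronan receptor, had 1323 counts in hypoxia against 1040 in normoxia, a log2 ratio of 0.25 (0.14 to 0.37). TPX2, which activates Aurora A on the spindle, had 6793 counts in hypoxia against 5833 in normoxia, at 0.13 (0.077 to 0.18). The rest lay between -0.047 and 0.063: DLGAP5 (HURP), which stabilises the fibres at kinetochores, was at 0.063 (-0.059 to 0.18), the microtubule protein CKAP2 at 0.039 (-0.12 to 0.20) and PRC1, the bundler of the central spindle, at 0.0055 (-0.075 to 0.086). ASPM, which works at the spindle poles, was at -0.027 (-0.16 to 0.10) and NUSAP1, which links microtubules to chromosomes, at -0.047 (-0.13 to 0.034). The summed counts gave 0.070 (0.038 to 0.10).

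The cytokinesis factors differed from each other. RACGAP1, the partner of KIF23 in centralspindlin, had 4083 counts in hypoxia against 3486 in normoxia, a log2 ratio of 0.14 (0.070 to 0.20). ANLN (anillin), the scaffold of the contractile ring, had 7364 counts in hypoxia against 6997 in normoxia, at -0.019 (-0.066 to 0.029). ECT2, the exchange factor that activates RhoA at the division plane, had 1423 counts in hypoxia against 1456 in normoxia, at -0.13 (-0.23 to -0.019). By interval, 1 of the 3 (33.3%) thus lay above 0, 1 held it and 1 (33.3%) lay below. The equally deeply counted genes had 18.8% above and 17.6% below.

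Of the chromosome and transcription factors, MKI67, the source of the Ki-67 antigen used to score proliferation, had 7127 counts in hypoxia against 6212 in normoxia, a log2 ratio of 0.11 (0.056 to 0.15). With the trend on gene length removed it was at 0.050, since its transcript is the longest of the 47. TOP2A, the topoisomerase that untangles chromosomes, had 6562 counts in hypoxia against 6186 in normoxia, at -0.0075 (-0.058 to 0.043). FOXM1, the transcription factor of the mitotic wave, had 2365 counts in hypoxia against 2236 in normoxia, at -0.012 (-0.096 to 0.072). The factor and the topoisomerase were level within counting error.

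**Figure D3:**
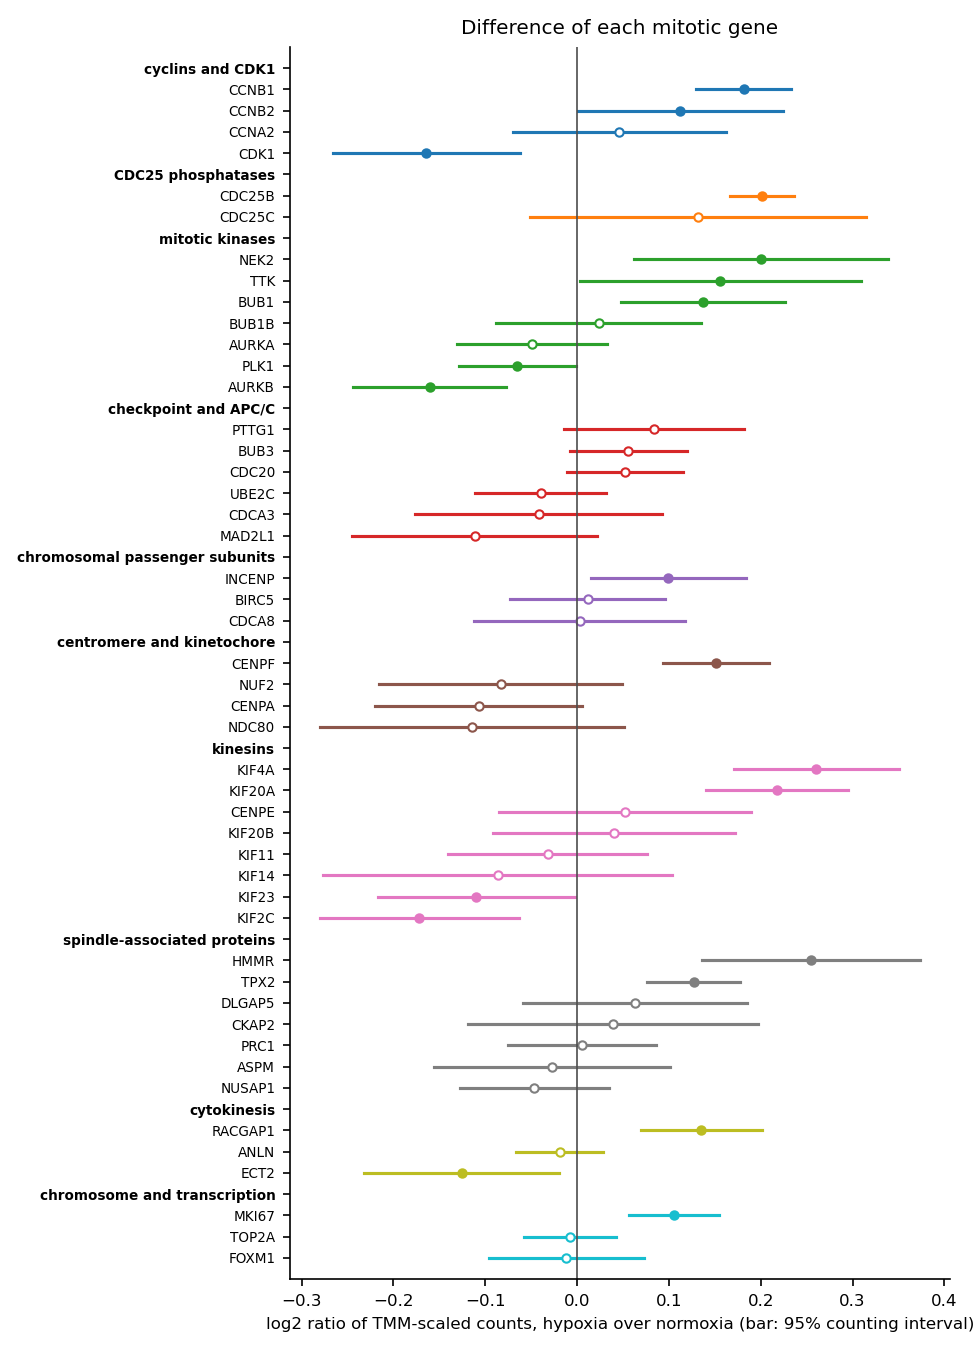
Log2 ratio of TMM-scaled counts, hypoxia over normoxia, for each of the 47 mitotic genes grouped by role, with bars for the 95% counting interval and filled points where the interval excludes 0. Filled points stand on both sides of 0 among the cyclins with CDK1, the kinases, the kinesins and the cytokinesis factors, and the checkpoint and APC/C group has none. Of the equally deeply counted genes, 18.8% lay wholly above and 17.6% wholly below.

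Ratios between 2 transcripts of the same library need no scaling, and 13 pairs of known partners were compared in this way. The pairs and the order of the genes in them were chosen after the values were seen, so the direction of the changes is set by that choice. How many intervals exclude 1 also depends on it, and no share for other pairs of genes was computed. Pairs that share CDK1, AURKB or BUB3 are not independent. CCNB1 had 4.44 counts for each CDK1 count in hypoxia and 3.49 in normoxia, a change of 1.27 (1.17 to 1.37)-fold. CCNB2 to CDK1 changed 1.21 (1.09 to 1.34)-fold and CCNA2 to CDK1 1.16 (1.04 to 1.29)-fold. The counts of INCENP to AURKB stood at 1.07 in hypoxia and 0.896 in normoxia, a change of 1.20 (1.10 to 1.30)-fold. BIRC5 to AURKB changed 1.13 (1.04 to 1.22)-fold and CDCA8 to AURKB 1.12 (1.02 to 1.23)-fold, so each of the other passenger subunits was higher relative to the kinase transcript. Within centralspindlin, RACGAP1 to KIF23 stood at 2.90 in hypoxia and 2.44 in normoxia, a change of 1.19 (1.09 to 1.29)-fold. TPX2 to AURKA changed 1.13 (1.06 to 1.21)-fold and KIF4A to its partner PRC1 1.19 (1.10 to 1.30)-fold. CDC20 to MAD2L1, whose single intervals both held 1, changed 1.12 (1.01 to 1.24)-fold. NDC80 to NUF2 stood at 0.635 in hypoxia and 0.648 in normoxia, a change of 0.979 (0.847 to 1.13)-fold that held 1. For BUB1 to BUB3 the value was 1.06 (0.981 to 1.14) and for BUB1B to BUB3 it was 0.978 (0.895 to 1.07), intervals that also held 1.

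**Figure D4:**
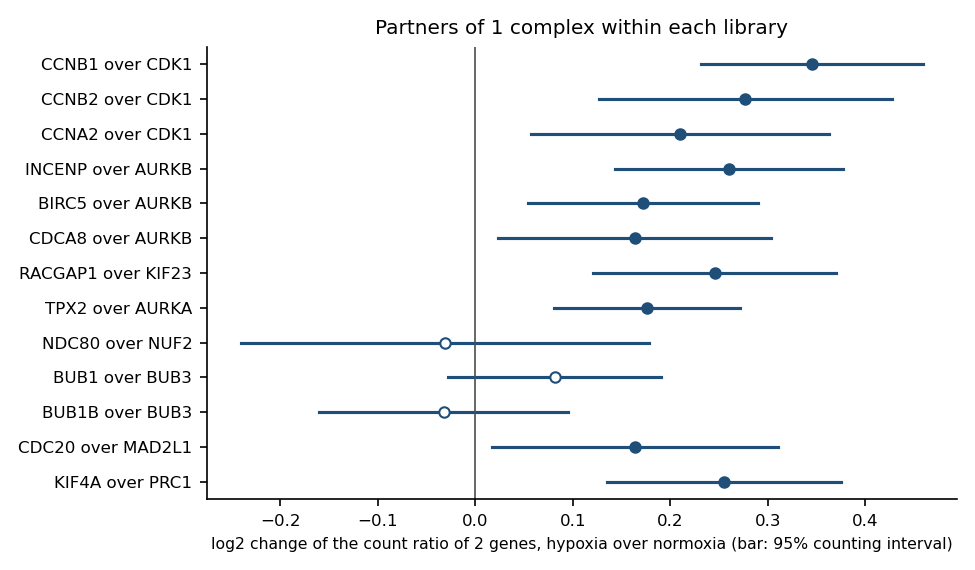
Log2 change, hypoxia over normoxia, of the count ratio of 2 partner genes within a library, with bars for the 95% counting interval and filled points where it excludes 0. The cyclins over CDK1, the passenger subunits over AURKB and RACGAP1 over KIF23 lie above 0, and NDC80 over NUF2 and the BUB kinases over BUB3 reach 0.

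Other genes of cell division were described from lists of known members. The 129 further genes listed with mitosis include some that are not specific to it, such as the transport kinesin KIF3A. Of the 129, 19 had intervals wholly above 1 (14.7%, against 15.0% of all genes tested). Another 20 lay wholly below (15.5%, against 14.0%), and the median was -0.014. The 20 other kinetochore genes had 1 above, 5 below and a median of -0.059, from SPC24, a subunit of the NDC80 complex, at -0.24 (-0.37 to -0.12) to SKA1, which couples kinetochores to shrinking microtubules, at 0.21 (0.011 to 0.42). The 18 genes of the inner centromere network had 0 above, 4 below and a median of -0.088, from CENPQ at -0.41 (-0.80 to -0.021) on 102 counts in hypoxia against 127 in normoxia to OIP5, a loader of CENPA, at 0.18 (-0.075 to 0.44). Of the 8 condensin subunits 1 was above, NCAPD2 at 0.13 (0.079 to 0.19), and the lowest was NCAPH2 at -0.089 (-0.19 to 0.015). Of 14 cohesin and separase genes 2 were above and 3 below, from CDCA5 (sororin) at -0.22 (-0.33 to -0.11) to the cohesin release factor WAPL at 0.16 (0.052 to 0.26). The 17 genes of the anaphase promoting complex had 2 above (1 with total counts) and 4 below, from its inhibitor FBXO5 (EMI1) at -0.18 (-0.39 to 0.029) to its largest subunit ANAPC1 at 0.24 (0.13 to 0.36). Reads of ANAPC1 may be shared with near-identical copies of parts of the gene, so its value is uncertain. As shares above and below, the kinetochore list had 5.00% and 25.0%, and the inner centromere network 0% and 22.2%. Condensin had 12.5% and 0%, cohesin and separase 14.3% and 21.4%, and the anaphase promoting complex 11.8% and 23.5%. All genes tested had 15.0% and 14.0%.

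The 21 further kinesins and spindle genes had 5 above, 1 below (2 with total counts or the length trend removed) and a median of 0.0087, from the mitotic kinesin KIF18B at -0.21 (-0.32 to -0.099) to KIF3A, a transport kinesin of cilia, at 0.30 (0.10 to 0.50). The 13 cytokinesis genes had 5 above (38.5%) and 0 below with a median of 0.051. Shares above were 15.0% over all genes tested and 18.8% over the equally deeply counted genes. The 5 were CEP55, RHOA, SEPTIN9, MYH9 and MYH10. CEP55 and SEPTIN9, with lower bounds of 0.00065 and 0.00037, barely lay above, and 3 genes did so with total counts, upper quartile scaling or the length trend removed, the last with a median of 0.031. The list ran from ARHGAP11A, which inactivates RhoA, at -0.063 (-0.19 to 0.068) to the myosin MYH10 at 0.15 (0.070 to 0.23). The 18 regulators of mitotic entry and exit had 3 above and 3 below with a median of 0.010, from CCNB3 to the phosphatase CDC14B at 0.21 (0.027 to 0.40). CCNB3, a cyclin mainly of the germ line, was the single listed gene to pass the size rule, on 14 counts in hypoxia against 40 in normoxia, or -1.61 (-2.60 to -0.70) on the log2 scale. PKMYT1, which inhibits CDK1 and was picked after its value was seen, had 935 counts in hypoxia against 1117 in normoxia, at -0.35 (-0.48 to -0.22). The 11 genes of MuvB, its repressor partners and MYBL2 had 1 above, 3 below and a median of -0.058. They ran from the pocket protein RBL1 at -0.27 (-0.47 to -0.060) to its relative RBL2 at 0.14 (0.035 to 0.25). As shares above and below, the kinesin and spindle list had 23.8% and 4.76%, and the regulators 16.7% and 16.7%. The MuvB list had 9.09% and 27.3%, and all genes tested 15.0% and 14.0%.

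Genes of DNA replication, whose transcripts peak earlier in the cycle, were set beside the mitotic genes. Of 38 replication genes 1 lay wholly above 1 and 15 wholly below (39.5%, against 12.8% of the mitotic genes and 14.0% of all genes tested), with a median of -0.090, where the mitotic genes had 0.023. They ran from CDC45, a part of the replicative helicase, at -0.39 (-0.54 to -0.23) to RFC1, the large subunit of the clamp loader, at 0.15 (0.017 to 0.28). Log2 ratios above 0 were found for 9 of 38 replication genes (23.7%), 27 of 47 mitotic genes (57.4%), 50.7% of all genes tested and 50.8% of the equally deeply counted ones. The ranges of both lists overlapped, and with 1 library per condition the difference between them was not tested against the spread between cultures.

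**Figure D5:**
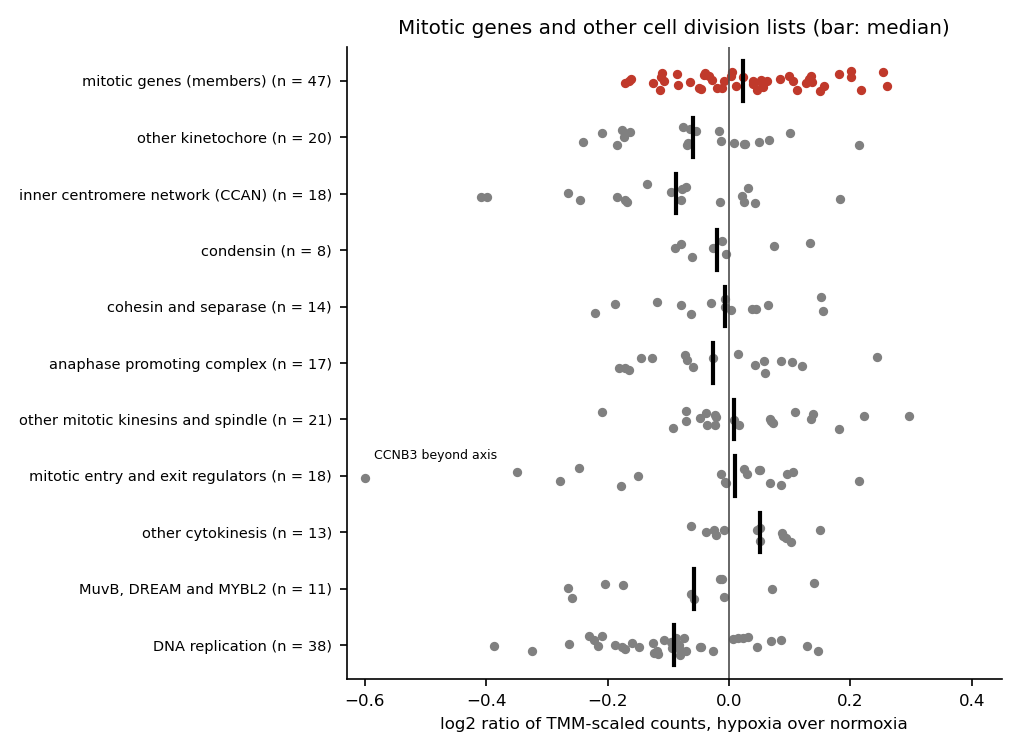
Log2 ratio of TMM-scaled counts, hypoxia over normoxia, for the 47 mitotic genes (red) and for the genes of 10 other cell division lists (grey), with a black bar at each median; CCNB3, at -1.61, is drawn at the left edge. The medians run from -0.090 (DNA replication) to 0.051 (other cytokinesis), and the points of every list lie on both sides of 0.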

How the data were processed

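Gene counts and FPKM values, deposited by the authors for the same 15562 genes, came from 1 RNA-seq library per condition. The submitters' processing notes name Bowtie, Cufflinks, HISAT2, HTSeq, Trimmomatic and the build GRCh38, without roles. The labels' protocols name a stranded kit, but not whether counting used strand. The miRNA-seq values were not used here.

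Counts were scaled with TMM in edgeR 4.0.16 under R 4.3.3. Genes at 1 or more CPM (counts scaled to library size) in at least 1 library were kept, 12725 in all, and all 47 members passed in both libraries. Each ratio carries an exact conditional 95% interval, computed in Python 3.11.15 with scipy 1.17.1, with numpy 2.4.6 and pandas 2.3.3; plots used matplotlib 3.10.9. The interval of a ratio between 2 genes is the normal interval of the log odds ratio. A call needed a ratio of 2 either way and an interval without 1. Intervals cover counting error only, since reads lack molecular identifiers and are not independent molecules, and 1 read equalled 0.0530 CPM in hypoxia and 0.0565 in normoxia. With 1 library per condition no p-value was computed. The steps were tested on simulated data. Scaling, the FPKM with a pseudocount, the filter, the call rule and a trend on gene length were varied, with DESeq2 1.42.0 for its size factors.

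The members and lists were chosen with earlier results of these data known. All members are given by value; of each list the highest and lowest gene are named. A search for degradation motifs in the proteins was planned and not run.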

Additional observations from a re-analysis of the deposited data

How the results depend on the processing

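No paired analysis was possible because each condition has 1 library, and for the same reason no library could be left out. No member passed the size rule under any scaling, filter, FPKM or length setting, or with an interval wholly beyond 1.5-fold. The members lying wholly above 1 numbered 12 to 15 and those wholly below 4 to 7 over the scaling, filter and length settings. Of 282 member log2 ratios recomputed with other scalings, FPKM or the length trend removed, 281 stayed within the interval given above, MKI67 with the length trend removed being the exception. Over the 39 members that overlap no other protein-coding gene, a choice made after seeing the data like the pairs and the comparison with equally deeply counted genes, the median was 0.039 instead of 0.023. Of all genes tested, 60 were called higher and 56 lower. Those numbers were 6 and 1 with FPKM and a pseudocount of 1, 30 and 20 with 0.1, 7 and 1 at a CPM of 5, 107 and 104 with no filter, and 25 and 13 with the interval beyond 1.5. With total counts, 1 gene of the anaphase promoting complex list lay above, 3 of the other cytokinesis list above and 2 of the other kinesin and spindle list below, and the median of the 129 further genes was -0.024. It was -0.024 with FPKM and a pseudocount of 0.1. Upper quartile scaling left 3 cytokinesis genes above. With the length trend removed, 3 cytokinesis genes lay above and 2 kinesin and spindle genes below, with medians of -0.053 for condensin and 0.031 for cytokinesis. Summed FPKM, which weights short genes more than summed counts, gave with pseudocounts of 1 and 0.1 log2 ratios of -0.053 and -0.054 for centromere and kinetochore, -0.054 and -0.054 for the kinases, 0.0070 and 0.0071 for chromosome and transcription, and 0.039 and 0.039 for all 47. FPKM with a pseudocount has no counting interval of its own, so numbers of intervals were not given for it.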

Other observations

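Gene length, worked out from the counts and FPKM, moved with the log2 ratio over all genes: Spearman's rho was 0.21 over the 12725 genes tested and 0.32 over the 7175 counted at least as deeply as the least counted mitotic gene. Over the 47 mitotic genes rho was 0.079, and Pearson's r on log2 length was 0.086. All of these are correlations across genes of the same 2 libraries, given as descriptions. The 24 mitotic genes at or above their median length of 3477 bases had a median log2 ratio of 0.039, and the 23 shorter ones 0.0055. Among the equally deeply counted genes, those at or above that length had a median of 0.030 and the shorter ones -0.035. With the length trend removed the median of the mitotic genes was 0.025.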
